A study of Mus musculus with 289 samples.

Results

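Single cells labelled as astrocytes and carrying a control guide were compared between 21 and 7 days after virus injection. The comparison rests on 15 of the 289 samples of the series, 8 cells at day 7 and 7 cells at day 21, all from the second of the deposited count tables. Each sample is 1 cell. The animals were adult transgenic mice expressing Cas9, and a lentivirus made for astrocytes (Mok-LV) carried the control guide (g-Control) into the cerebral cortex. Both groups therefore share the Cas9 transgene, the injection, the virus and the control guide, and they differ in the time since injection. Each cell was drawn into the tip of an electrophysiology pipette and its polyadenylated RNA was sequenced after Smart-seq2 amplification, a full-length method. The labels name no animal, sex, exact age or Cas9 promoter, so each day was treated as a single pool of cells and nothing was tested. All day 7 cells bear 1 series number in their titles and all day 21 cells another, so collection series and day cannot be told apart.

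Other libraries are cited as context only. The same table holds 8 cells at day 21 whose guides targeted both Sox9 and Trps1, and a library with no cell in it, drawn in the slice (the in-slice control). A different table holds 15 control-guide cells at day 21 from the fourth batch. The 42 control-guide samples of all batches were not pooled.

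Class II major histocompatibility (MHC) molecules present fragments of taken-up proteins to CD4+ T cells, and in brain they are known mainly from microglia, macrophages and dendritic cells, although astrocytes can carry them under interferon-gamma. Interferons act through STAT and IRF factors to switch on antiviral genes and guanylate-binding proteins. Immediate early genes such as Fos, Egr1 and Nr4a1 are transcribed within minutes of stimulation and can also be switched on by handling tissue and cells.

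Values are reads per 1000000 reads in genes (CPM), with spike-in and guide reads left out of the totals. A pool's CPM is the summed reads of its cells over their summed totals, and is given with an exact Poisson 95% interval. Shares of cells with a read carry an exact Clopper-Pearson 95% interval. Without molecular identifiers, amplified copies count as separate reads, so both intervals cover counting error only, not variation between cells or animals. A log2 ratio is day 21 over day 7 on pool CPM + 5, which understates the difference of low genes. A gene was past the fold at a log2 ratio of at least 1 in either direction. It was kept when, in addition, it was past the fold again without the highest cell of each pool and its share of cells with a read differed by at least 20 percentage points the same way.

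The cells held 1539910 to 2786766 reads in genes at day 7 and 1470970 to 2701806 at day 21. The number of genes with at least 1 read varied more: 2342, 4244 and 9024 (lowest, median, highest) at day 7 and 1302, 3974 and 5631 at day 21. With each cell thinned to 1470970 reads the medians were 4043 and 3512. Day 21 replicates 2 and 3 had the fewest genes, 1302 and 1528, and day 7 replicates 5 and 6 the most, 9024 and 8518; lead counts are given with and without these 4 cells. The pools held 4.93 reads in genes per spike-in read at day 7 and 2.95 at day 21. Mitochondrial reads made up a median of 3.54% at day 7 and 7.13% at day 21, and ribosomal protein genes 1.27% and 2.70%. The part of these differences in the results below was not tested.

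**Figure D1:**
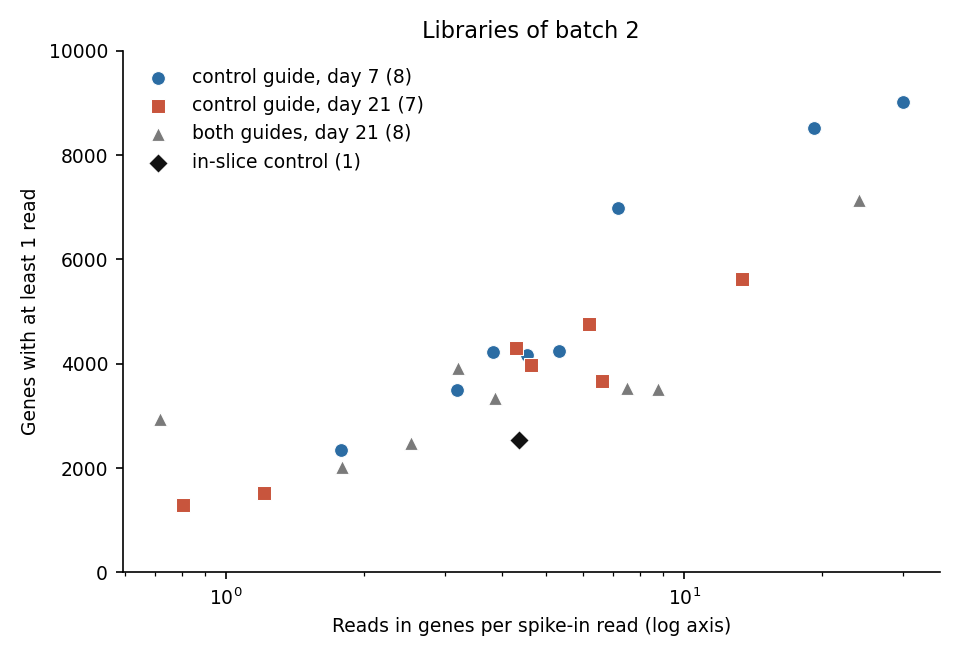
Each point is 1 library: reads in genes per spike-in read (horizontal, log axis) against the number of genes with at least 1 read (vertical), for the control-guide cells of day 7 and day 21, the cells with both guides and the in-slice control. The day 21 control cells lie between 1302 and 5631 genes and the day 7 control cells between 2342 and 9024, so the ranges overlap.

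The astrocyte label was checked against defining genes. Slc1a2, a glutamate transporter, and Aldoc, a glycolytic enzyme, had reads in all 7 day 21 and all 8 day 7 cells, and Slc1a3 in 7 of 7 and 7 of 8. Gja1, the main astrocyte gap junction protein, was at 665 CPM at day 21 and 1631 CPM at day 7. The water channel Aqp4 was at 136 CPM (5 of 7 cells) and 639 CPM (7 of 8). Microglial genes were present in the same cells: C1qa and Aif1 each had reads in 7 of 7 day 21 cells and 7 of 8 day 7 cells. The libraries thus hold RNA of both kinds, and within a library the astrocyte's and the microglial share of an immune gene's reads cannot be told apart. The in-slice control held 2299609 reads in genes and 2548 genes with a read. Its astrocyte identity list summed to 17395 CPM, within the range of the 15 cells (6704 to 91488 CPM). Of this sum Apoe and Cst3, genes that microglia also express, gave 8413 and 6260 CPM. Below it lay day 7 replicates 2 and 3, at 7627 and 13966 CPM, and day 21 replicates 2, 6 and 7, at 12567, 15667 and 6704 CPM. For these cells the list sum does not set the astrocyte label apart from the in-slice control. The in-slice control had no read of Slc1a2, Aldoc or Aqp4. Its microglial and macrophage list summed to 37406 CPM. It is labelled day 7, although its title has the series number of the day 21 cells.

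Because the promoters of class II and interferon genes carry well-known sequence elements, the 150 bases before the start of 5 of the genes that differed are shown here (RefSeq, GRCm38.p6, 5′ to 3′ on the gene's strand). Capitals mark matches to CTGATTGG, the Y box of class II promoters, in H2-Aa and H2-Eb1, to the STAT-binding pattern TTCNNNGAA in Irf1 and Igtp, and to the interferon response pattern GAAANNGAA on either strand in Ifit1 and Igtp.
H2-Aa, chr17:34287824-34287973, minus strand: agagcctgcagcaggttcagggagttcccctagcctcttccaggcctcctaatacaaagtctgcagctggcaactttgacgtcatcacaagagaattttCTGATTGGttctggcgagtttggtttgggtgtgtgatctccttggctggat
H2-Eb1, chr17:34305717-34305866, plus strand: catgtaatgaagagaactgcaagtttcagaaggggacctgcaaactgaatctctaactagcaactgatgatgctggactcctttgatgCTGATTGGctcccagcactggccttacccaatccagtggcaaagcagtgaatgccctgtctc
Irf1, chr11:53769864-53770013, plus strand: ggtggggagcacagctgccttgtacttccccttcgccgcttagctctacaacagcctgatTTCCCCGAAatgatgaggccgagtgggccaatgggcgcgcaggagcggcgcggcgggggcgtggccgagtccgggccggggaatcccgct
Ifit1, chr19:34640739-34640888, plus strand: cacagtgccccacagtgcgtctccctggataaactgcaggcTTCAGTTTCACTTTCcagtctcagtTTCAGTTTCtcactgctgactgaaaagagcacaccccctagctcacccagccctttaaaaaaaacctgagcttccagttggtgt
Igtp, chr11:58199406-58199555, plus strand: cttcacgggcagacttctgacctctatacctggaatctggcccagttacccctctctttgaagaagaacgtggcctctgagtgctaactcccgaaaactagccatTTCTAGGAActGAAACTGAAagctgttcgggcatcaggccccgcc
The Y box began 51 bases before the start of H2-Aa and 62 before that of H2-Eb1. In Ifit1 the first and second of 3 matches overlap.

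Matches were counted on both strands in windows of 300 bases, 250 before to 50 after the start. Among all 32851 RefSeq windows, 8.30% held TTCNNNGAA, 8.56% GAAANNGAA and 4.10% CTGATTGG. The kept genes of the class I, interferon and guanylate-binding lists numbered 24, of which 19 had a window. Of these 19, 6 held TTCNNNGAA (Psmb8, Irf1, Ifi35, Gbp5, Igtp and Irgm2) and 6 held GAAANNGAA (Psme1, Ifit1, Ifi44, Gbp5, Igtp and Irgm2). H2-Aa and H2-Eb1, the kept class II genes with a window, both held CTGATTGG, as did Psmb9 among the 19. Neither of the other patterns was found in H2-Aa or H2-Eb1. CTGATTGG was searched after the class II values had been seen. The 19 genes had 22 windows, and a gene was counted when any of its windows matched, whereas the shares among all 32851 are per window. Members of these lists that were not kept were not counted, so the counts do not bear on the difference between the days. A match describes the letters in the window and is not a measured binding site.

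Of 9431 genes with a mean pool level of at least 5 CPM, 2804 were past the fold higher at day 21 (29.7% of the genes compared) and 3841 lower (40.7%). The kept genes numbered 229 higher (2.43%) and 1893 lower (20.1%). The median log2 ratio of all genes was -0.24. The balance of these counts followed the 4 cells with extreme gene numbers: without them 3584 of 8633 genes were higher (41.5%) and 2971 lower (34.4%), 922 were kept higher (10.7%) and 796 kept lower (9.22%), and the median was 0.37. Of the 229 genes kept higher, 212 were kept again without the 4 cells, against 743 of the 1893 kept lower. Of the 159 kept genes that were chosen for naming, 21 were no longer past the fold without the 4 cells. Scaling to spike-in reads in place of reads in genes lowered the median of all genes to -0.95 and gave 1798 higher and 4483 lower, so that 28.6% of the genes past the fold were higher, against 42.2% as scaled here. With so few cells, a gene with no read was common: 1771 compared genes had none in any day 21 cell and 570 none in any day 7 cell. Given the minimum mean level of 5 CPM and the 5 CPM added, each of these was past the fold by construction. No read in 7 cells allows a share of up to 41.0% of cells, and none in 8 up to 36.9%.

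Cd74 and the class II chains H2-Aa, H2-Ab1 and H2-Eb1 were read in 5 to 7 of 7 day 21 cells and in at most 2 of 8 day 7 cells, while the class II list as a whole had reads in 7 of the 8 day 7 cells. Cd74, on chromosome 18 from 60803848 to 60812652 (GRCm38, plus strand), encodes the invariant chain that guides class II molecules. Its level in the 7 day 21 cells was 3.38, 1112 and 6083 CPM (lowest, median, highest). At day 7 a read was found only in replicate 5, at 36.6 CPM, and the other 7 cells had none. All day 21 cells had a read, but the lowest of them, 3.38 CPM in replicate 1, lay below the day 7 high. The pools were at 1841 CPM (1819 to 1863) and 5.61 CPM (4.57 to 6.81), a log2 ratio of 7.44. The share of cells with a read was 7 of 7 (59.0 to 100%) against 1 of 8 (0.316 to 52.7%). Without the 4 cells the log2 ratio was 8.70.

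H2-Aa, the alpha chain of the class II molecule I-A (chromosome 17, 34282744 to 34287823, minus strand), ranged over 0.680, 792 and 1977 CPM (lowest, median, highest) at day 21. At day 7 the highest cell was at 0.447 CPM, which is 1 read, and the other 7 had none. It was the 1 gene of 9431 (0.0106%) whose day 21 cells all lay above all day 7 cells, and the nearest cells of the 2 days had 1 read each. Pool levels were 870.5 and 0.0550 CPM, a log2 ratio of 7.44. H2-Ab1, its beta chain partner, had 5 of 7 cells with a read, between 0.643 and 2597 CPM, and no read at day 7. Its pool levels were 687 CPM and 0, at least 4167-fold higher at day 21 against a floor of 3 reads over the pool. H2-Eb1, the beta chain of I-E, was at 529 and 0.220 CPM, with reads in 5 of 7 and 2 of 8 cells. Its day 21 cells fell apart into 3 between 746 and 1316 CPM and 4 with at most 0.643 CPM, the last within the day 7 range.

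Of the 16 listed class II genes 13 were compared, 8 past the fold higher and 2 lower, where 29.7% of all genes were higher and 40.7% lower. Cd74, H2-Aa, H2-Ab1 and H2-Eb1 were the 4 kept higher, where 2.43% of all genes were. The list's median log2 ratio was 1.38, beside -0.24 for all genes, and it stayed positive at 0.68 under spike-in scaling. Without the 4 cells 11 of 11 compared were higher, 8 of them kept, with a median of 4.79. In that setting 41.5% of all genes were higher and 10.7% kept higher. Cd83, a surface protein of activated antigen-presenting cells, ranked among the 15 most different kept genes: its pools were at 338 and 130 CPM, with reads in 6 of 7 and 2 of 8 cells. Its day 7 level rested on 1 cell at 845 CPM. With the highest cell of each pool left out its log2 ratio went from 1.35 to 5.66.

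**Figure D2:**
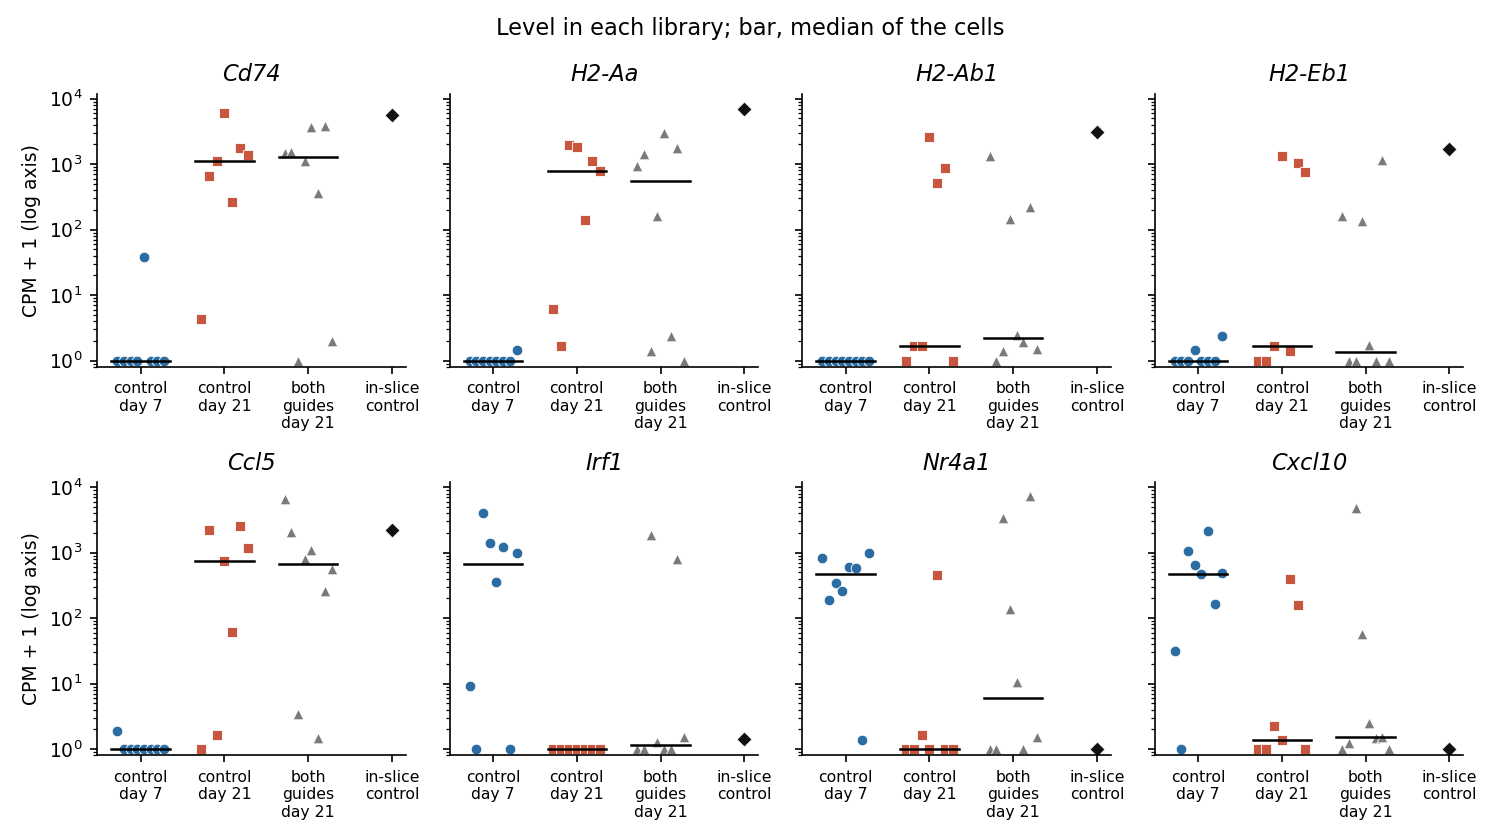
CPM + 1 on a log axis for each library (points) and the median of each group (bar), for Cd74, H2-Aa, H2-Ab1, H2-Eb1, Ccl5, Irf1, Nr4a1 and Cxcl10, in control-guide cells of day 7 and day 21, cells with both guides and the in-slice control. Irf1 lies at 0 in all 7 day 21 control cells, and Cd74 at 0 in 7 of 8 day 7 control cells.

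The same class II genes were high in the in-slice control, which the labels describe as holding no cell: Cd74 was at 5617 CPM, H2-Aa at 7008, H2-Ab1 at 3073 and H2-Eb1 at 1673. Cd74 was at 1362 CPM in the cells with both guides at day 21 (7 of 8 with a read) and at 5009 CPM in the day 21 control cells of the fourth batch (15 of 15). The 26 microglial and macrophage markers in the table summed to 11512 CPM at day 21 and 8807 at day 7. Of these 24 were compared, with 7 past the fold higher and 4 lower, shares at and below the 29.7% and 40.7% of all genes. Those kept were 3 higher and none lower, where 2.43% and 20.1% of all genes were. Without the 4 cells 14 of 22 were higher, 7 of them kept, and none lower, with a median log2 ratio of 1.94. Among all genes 41.5% were then higher, 10.7% kept higher and 34.4% lower. The summed level per cell ran from 1103 to 28877 CPM at day 21 and from 158 to 38055 at day 7. The kept markers were the complement genes C1qb and C1qc and Ptprc, the leukocyte surface protein CD45. C1qb spanned 301, 1611 and 5776 CPM (lowest, median, highest) at day 21 and 0, 159 and 4712 at day 7. Ptprc had reads in 4 of 7 and 1 of 8 cells.

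The cell with the highest microglial sum of all 15 was at day 7, not day 21. Replicate 5 of day 7, at 38055 CPM of microglial markers, had 36.6 CPM of Cd74 and no read of H2-Aa, H2-Ab1 or H2-Eb1. At day 21 replicate 4 was highest in both sums, with 21647 CPM of class II list genes and 28877 of microglial markers, and replicate 1 was lowest in both, with 159 and 1103. Ctss and Lgmn belong to both lists, so the class II and microglial sums share reads and are not independent. The class II list sum includes genes read in both groups and was 10742 CPM in replicate 5 of day 7. The microglial list's median log2 ratio was 0.54, but -0.19 under spike-in scaling and -0.40 without day 21 replicate 4. What share of the class II difference comes from microglial RNA was not tested.

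**Figure D3:**
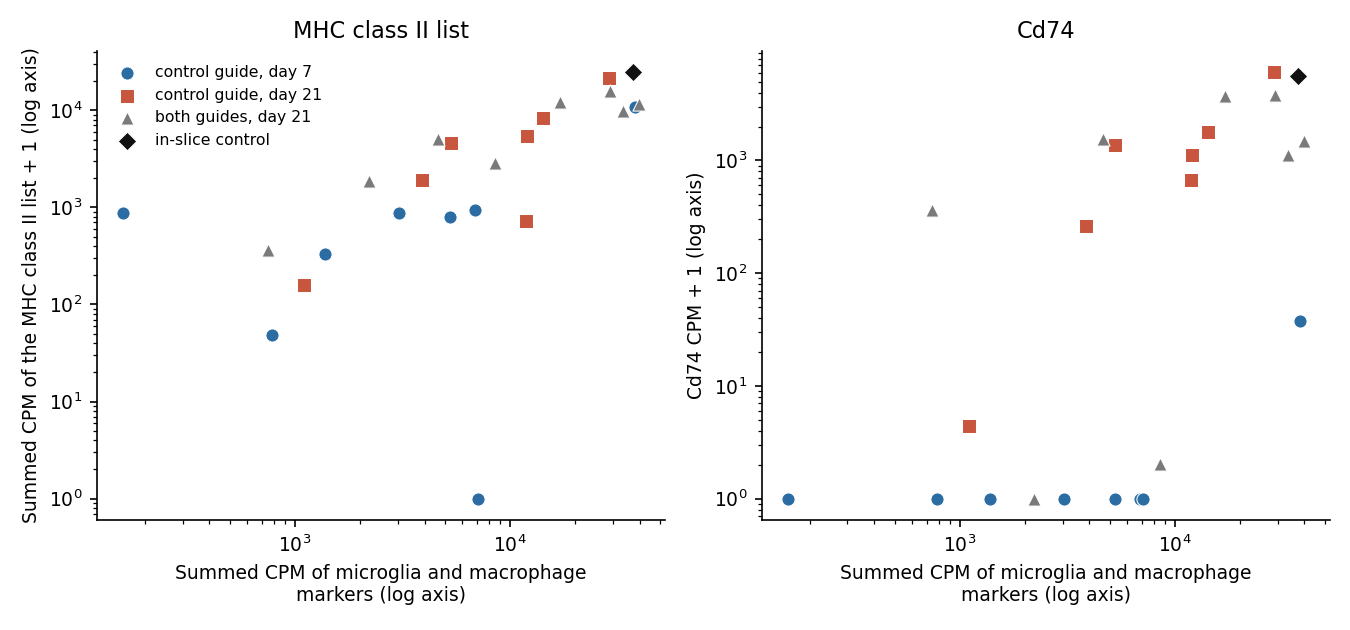
Left, the summed class II list (CPM + 1) against summed microglial and macrophage markers (CPM), and right, Cd74 (CPM + 1) against the same sum, 1 point per library, log axes. Ctss and Lgmn are in both lists of the left panel, so its axes share reads. On the right the day 7 cell with the highest microglial sum, 38055 CPM, lies at 36.6 CPM of Cd74, below 6 of the 7 day 21 cells.

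Ccl5, a chemokine that draws T cells and monocytes (chromosome 11, 83525778 to 83530518, minus strand), was read in 6 of 7 day 21 cells (42.1 to 99.6%), at 0, 738 and 2519 CPM (lowest, median, highest). At day 7 it had 0.861 CPM in replicate 1 and none in the other 7 cells. Replicates 1 and 3 of day 21, at 0 and 0.643 CPM, lay within the day 7 range and the other 5 above it. The pools were at 946 CPM (930 to 961) and 0.110 CPM (0.0133 to 0.397), a log2 ratio of 7.54, and 7.48 without the 4 cells. Ccl5 was at 2254 CPM in the in-slice control, 1617 CPM in the cells with both guides and 479 CPM in the fourth batch's control cells.

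T and natural killer cells are a known source of Ccl5. Of 15 markers of these cells in the table, 11 were compared, 10 past the fold higher at day 21 (29.7% of all genes were) and 1 lower. None was kept. Of the 11, 8 had no read in 1 pool and were past the fold by construction. The median log2 ratio was 2.93, and 7.32 with genes at 0 set to their bound, but 0 with the highest cell of each pool left out. The markers summed per cell to 0 to 2406 CPM at day 21 and 0 to 244 CPM at day 7, and day 21 replicates 6, 1 and 2 had the highest sums. Thy1, at a log2 ratio of -1.05, is also on the list of markers common to most neurons, so the sums include reads of a neuronal marker. At day 7, 11 of the 15 markers had no read. Among defining genes, Cd3e had reads in 2 of 7 day 21 cells and Trac, Cd2 and Cd4 in 1 each. The log2 ratios of Cd4, Il7r and Cd2 were 4.46, 4.30 and 3.87, while Cd8b1, Lck, Gzmk and Ncr1 had none. Day 21 replicate 4, at 738 CPM of Ccl5, had a T and natural killer sum of 1.11 CPM, and the in-slice control had 0.435. Of the compared markers of monocytes, neutrophils and dendritic cells all 5 were past the fold higher, where 29.7% of all genes were. Of the 5, 4 had no read in 1 pool and were past the fold by construction. Those kept were 3 (Itgal, Cst7 and Csf3r), where 2.43% of all genes were, and the median was 2.53. Csf3r was the clearest, in 3 of 7 cells at a pool level of 144 CPM and with no read at day 7, at least 875-fold higher. The whole list summed to 937 CPM at day 21, 164 CPM at day 7 and 1935 CPM in the in-slice control, which was high in microglial markers. Which cells the reads of these marker lists came from, and the part of such cells in the Ccl5 value, was not tested.

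Of 13 chemokines compared, Ccl5 included, 3 were past the fold higher and 4 lower, shares near or below the 29.7% and 40.7% of all genes. Ccl5 was the one kept higher and Cxcl10 the one kept lower. This count depended on the 4 cells, without which 8 of 11 were higher and 2 lower, with 5 kept higher and 1 lower. Without them 41.5% of all genes were higher and 34.4% lower, with 10.7% kept higher and 9.22% kept lower. Ccl3 and Ccl4, which microglia make in quantity, had pool levels of 977 and 722 CPM, and of 2199 and 1286 CPM, at day 21 and day 7. Day 7 replicate 5 alone was at 4039 CPM of Ccl3 and 6729 CPM of Ccl4. Without the 4 cells their log2 ratios were 2.97 and 2.6, from 0.43 and 0.77. The list's median of 0.43 was -0.30 under spike-in scaling 2.6 without the 4 cells and 3.08 without day 7 replicate 5 alone. Cxcl10 is an interferon-induced chemokine. Its day 7 cells were at 0, 478 and 2130 CPM (lowest, median, highest), and 7 of 8 had a read. Its day 21 cells were at 0, 0.370 and 399 CPM. Day 21 replicates 5 and 6, at 399 and 159 CPM, lay within the day 7 range, and the other 5 below all day 7 cells with a read. The log2 ratio was -2.74, or -1.65 without the 4 cells.

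Interferon-response genes lay toward day 7. Irf1, the transcription factor that interferon-gamma induces (chromosome 11, 53770014 to 53778374, plus strand), had no read in any day 21 cell. In the day 7 cells it was at 0, 672 and 4093 CPM (lowest, median, highest). The 2 day 7 cells without a read, replicates 2 and 7, matched the day 21 cells, and the other 6 lay above all of them. The pools were at 0 (0 to 0.247) and 876 CPM (863 to 890), at least 4362-fold lower at day 21. Irf1 was not missing from day 21 libraries in general: it was at 294 CPM in the cells with both guides (4 of 8 with a read) and at 85.5 CPM in the fourth batch's control cells (7 of 15).

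Of 37 interferon-response genes 31 were compared. Past the fold, 20 were lower at day 21 (40.7% of all genes were) and 4 higher (29.7%). Those kept numbered 12 lower (20.1% of all genes were) and none higher. Of the 31, 11 had no read in 1 pool and were past the fold by construction. The median log2 ratio was -1.63, or -1.95 with genes at 0 at their bound, beside -0.24 for all genes. Irf7, the factor that amplifies type I interferon, and Ifit1, an antiviral protein that binds foreign RNA, had no read at day 21. They had reads in 3 and 4 of 8 day 7 cells, at pool levels of 92.2 and 88.9 CPM, and were at least 459-fold and 442-fold lower. Ifi27 was read in every day 7 cell, at 139, 552 and 1858 CPM (lowest, median, highest), and in 5 of 7 at day 21, at 0, 121 and 974 CPM. The groups overlapped widely there, and the log2 ratio was -1.22. Kept as well were Irf9, Mx2, Oasl1, Dhx58, Oasl2, Ifi44 and Ifi35. The last 3 rested on few cells: without the many-gene pair of day 7 the log2 ratios of Oasl2 and Ifi44 went from -3.31 and -2.86 to 0, and that of Ifi35 was -0.18 without the 4 cells, from -1.36. When the 4 cells with extreme gene numbers were left out, 11 of 23 compared interferon genes were lower and 4 higher, with 5 kept lower and 2 higher and a median of -0.94. Among all genes 34.4% were then lower and 9.22% kept lower, with a median of 0.37. Without the many-gene pair of day 7 alone, 10 of 24 interferon genes were lower and 5 higher, with a median of -0.58. In that setting 35.7% of all genes were lower.

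Guanylate-binding proteins and immunity-related GTPases, which attack vacuoles of intracellular microbes, had the same direction. Of 14 compared, 9 were past the fold lower and 1 higher, with 5 kept lower, where 40.7% of all genes were lower and 20.1% kept lower. The kept ones were Gbp5, Gbp9, Igtp, Irgm2 and Ifngr2, a chain of the interferon-gamma receptor, all lower, with a list median of -1.23. The value of Igtp rested on day 7 replicate 8, without which its log2 ratio was 0.13. Gbp9 went from -2.55 to -0.02 without the many-gene pair of day 7. Gbp5 had no read at day 21 and 74.8 CPM at day 7, at least 372-fold lower, but 4 of the 8 day 7 cells also had none. Ifngr2 was at 0.803 and 100.2 CPM. With the 4 cells left out 8 of 14 were lower and 4 higher, with 3 kept lower, where 34.4% of all genes were lower and 9.22% kept lower.

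Class I presentation was mixed. Of 19 genes compared 4 were past the fold higher and 9 lower, with a median of -0.26. Among all genes 29.7% were higher and 40.7% lower. Among the kept genes, Psmb8, an immunoproteasome subunit, and Psme1, a proteasome activator subunit, were higher. Psmb9 and Psmb10, Psmb8's partners in the immunoproteasome, and Psme2, the partner of Psme1, were lower, as were the peptide-loading proteins Tapbp and Calr. Psme1 was at 0, 155 and 527 CPM (lowest, median, highest) at day 21 and was read at day 7 only in replicate 5, at 317 CPM. Psmb9 had no read at day 21, at least 426-fold lower. Genes of 1 complex thus lay on opposite sides, and the list's median turned positive without day 7 replicate 3 or 4, without day 21 replicate 7 and without the few-gene pair of day 21.

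Nr4a1, an immediate early nuclear receptor (chromosome 15, 101254269 to 101274795, plus strand), was read in all 8 day 7 cells (63.1 to 100%), at 0.396, 465 and 992 CPM (lowest, median, highest). At day 21 it was read in 2 of 7 (3.67 to 71.0%), at 447 CPM in replicate 5 and 0.643 CPM in replicate 3. Apart from replicate 5, all day 21 cells lay below 7 of the 8 day 7 cells. The pools were at 75.3 CPM (70.9 to 79.8) and 487 CPM (476 to 497), a log2 ratio of -2.61. That single day 21 cell set the size of the value, since the ratio was -6.60 without it. Nr4a1 was at 1112 CPM in the cells with both guides at day 21 (5 of 8) and at 62.2 CPM in the fourth batch's control cells (8 of 15).

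The immediate early and stress genes as a list did not share this. Of 27 compared 6 were past the fold higher and 9 lower, with 7 kept, all lower, and the median was -0.25. The share past the fold lower was under the 40.7% of all genes, and 20.1% of all genes were kept lower. The kept genes were Nr4a1, Egr1, Ier2, the phosphatase Dusp6, the growth-arrest genes Gadd45b and Gadd45g, and the heat shock co-chaperone Dnajb1. Dusp6 was at a log2 ratio of 0.17 without day 7 replicate 4. Gadd45g was at 125, 1000.3 and 4412 CPM (lowest, median, highest) at day 7 and 0, 17 and 2032 CPM at day 21. Its 3 highest day 21 cells, replicates 1, 3 and 5, overlapped the day 7 range. Egr1 was at 972 and 1966 CPM in the pools, a log2 ratio of -1.01, and -0.89 without the 4 cells. Fos, read in every cell, was at 2318 and 3932 CPM, a log2 ratio of -0.76 and not past the fold.

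Targets of p53, the factor that stops growth after DNA damage, lay lower at day 21: of 15 compared 10 were past the fold lower and 1 higher, and 8 were kept, all lower, where 40.7% of all genes were lower and 20.1% kept lower. Of the 15, 7 had no read in 1 pool and were past the fold by construction. The median was -1.87, or -4.24 with genes at 0 at their bound. Cdkn1a, the cell cycle inhibitor p21, was at 0, 298 and 3053 CPM (lowest, median, highest) at day 7. At day 21 its highest cell was at 67.7 CPM, below 6 of the 8 day 7 cells. Pool levels were 589 and 26.5 CPM, a log2 ratio of -4.24, and -3.99 without the 4 cells. Mdm2, the ligase that degrades p53, was at 196 and 2.48 CPM, with reads in 7 of 8 and 2 of 7 cells. Ccng1 and Sesn1 had no read at day 21, at least 396-fold and 753-fold lower. Aen, Eda2r and Zmat3 were also kept, and the call on the death receptor Fas rested on the many-gene cells of day 7, with a log2 ratio of 1.22 without them. Without the few-gene and the many-gene pairs the p53 list had 9 of 14 lower and 3 higher, 4 kept lower and 1 higher, and a median of -2.34. All genes then had 34.4% lower and 9.22% kept lower.

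Of 17 circadian clock genes compared 9 were past the fold lower and 2 higher, with 7 kept lower and a median of -1.19, where 40.7% of all genes were lower and 20.1% kept lower. The labels give no hour of collection. Bhlhe40, a light- and stimulus-responsive repressor, was at 0.547, 603 and 3670 CPM (lowest, median, highest) at day 7 and was read at day 21 in 3 of 7 cells, up to 335 CPM. Ciart, a repressor in the clock loop, was at 418 CPM at day 7 and 1.0 CPM at day 21, but 4 of the 8 day 7 cells had no read. Per1, Per2, Cry2, Nr1d2 and Tef were the others kept, of which Cry2 was at a log2 ratio of 1.55 without day 7 replicate 4. With the 4 cells left out 9 of 18 were lower and 4 higher, with 4 kept lower and a median of -0.86. In that setting 34.4% of all genes were lower and 9.22% kept lower.

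Reactive astrocyte genes are switched on by injury and inflammation. Of 28 compared 14 were past the fold lower and 5 higher at day 21, with 6 kept, all lower. Among all genes 40.7% were lower and 29.7% higher, with 20.1% kept lower. Socs3, the feedback inhibitor of STAT3 signalling, was at 0, 277 and 629 CPM (lowest, median, highest) at day 7. A single read was found at day 21, in replicate 3, and the log2 ratio of the pools was -5.86. Hspb1, a small heat shock protein, had no read at day 21 and 194 CPM at day 7, at least 967-fold lower. The remaining kept genes were Cd44, Emp1, Clcf1 and Cxcl10. Gfap, the classic intermediate filament of reactive astrocytes, reached at most 4574 CPM at day 21 and 2521 CPM at day 7. The log2 ratio of its pools lay the other way, at -0.39, and was not past the fold. It ranged from -1.57 to -0.08 over the 26 alternatives. The list's median of -1.02 was 0.70 without the 4 cells, where 11 of 22 compared were higher and 6 lower, so the direction of the list as a whole depended on them. Among all genes 41.5% were higher and 34.4% lower without these cells, with a median of 0.37.

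**Figure D4:**
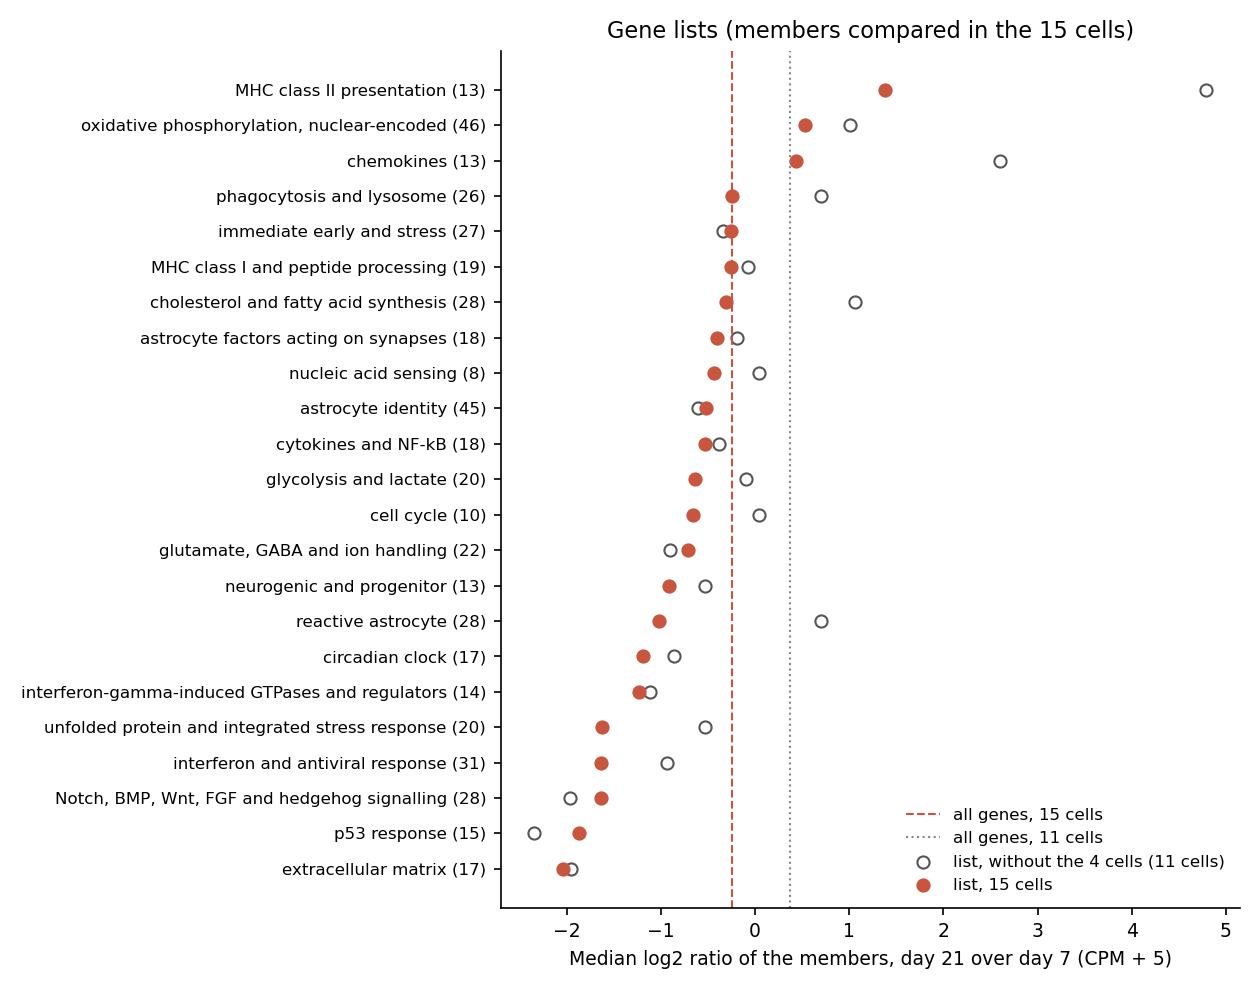
Median log2 ratio (day 21 over day 7) of each of 23 gene lists, for all 15 cells (filled) and without the 4 cells with extreme gene numbers (open); the lines give the medians of all genes, -0.24 and 0.37. Class II presentation is positive and the interferon, GTPase, p53, clock, matrix and developmental signalling lists are negative in both, while the reactive, cholesterol, phagocytosis, nucleic acid sensing and cell cycle lists change sign between them, and the chemokine and oxidative phosphorylation lists are negative under spike-in scaling.

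Astrocyte identity genes were the list with all 45 members compared. Of these 2 were past the fold higher and 13 lower, with 1 kept higher and 5 lower, and a median of -0.52; the share past the fold was below that of all genes in both directions. Gjb6, the gap junction protein connexin 30, was the kept higher gene, at 0, 438 and 1417 CPM (lowest, median, highest) at day 21 and 0, 45.2 and 1208 CPM at day 7. The ranges overlapped fully, and its log2 ratio was 1.06. Slc4a4, a bicarbonate cotransporter, was lower, at 9.31 and 221 CPM with reads in 2 of 7 and 7 of 8 cells. The others kept lower were Mfge8, F3, Id4 and Gpc5. With the 4 cells left out 2 were higher and 15 lower, where 41.5% of all genes were higher and 34.4% lower. Under spike-in scaling 30 of the 45 were lower and 1 higher, with a median of -1.25. On that scale 49.2% of all genes were lower, so the share of the list lower then lay above that of all genes. Among 22 genes of glutamate handling and ion transport, 3 were past the fold higher and 9 lower, with 1 kept higher and 5 lower. The shares of all genes were 29.7% and 40.7%, with 2.43% and 20.1% kept. Grm3, a metabotropic glutamate receptor, was the higher one, at 0, 91.2 and 545 CPM at day 21 and at most 20.7 CPM at day 7. Day 21 replicates 1, 3, 4 and 5 lay above every day 7 cell. Gabbr1, a GABA-B receptor subunit, was at 6.96 and 172 CPM, with reads in 1 of 7 and 6 of 8 cells. Its partner Gabbr2, the glutamate receptor Grm5 and the GABA-A subunit Gabrb1 were also kept lower.

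Sox9 and Trps1, the targets of the other guides, were not targeted here. Sox9 (chromosome 11, 112782224 to 112787760, plus strand) was at 0, 510 and 1544 CPM (lowest, median, highest) at day 21 and 0, 392 and 894 CPM at day 7. Pool levels were 491 and 413 CPM with a log2 ratio of 0.25, which turned as low as -1.57 under other settings. Trps1 (chromosome 15, 50654752 to 50890463, minus strand) was at 107 and 174 CPM, a log2 ratio of -0.68. The groups overlapped for both, and neither was past the fold.

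Genes of Notch, BMP, Wnt, FGF and hedgehog signalling lay lower at day 21, with 18 of 28 compared past the fold lower and 3 higher, 10 kept lower and 1, the TGF-beta inhibitor Smad7, kept higher. Among all genes 40.7% were lower and 20.1% kept lower. The median was -1.64, and -1.96 without the 4 cells, where 6 of 26 compared were kept lower, beside 9.22% of all genes. Notch1 was at 72.2 and 297 CPM, with reads in 2 of 7 and 6 of 8 cells. Id2, a helix-loop-helix inhibitor, was read in all 8 day 7 cells at 170, 1334 and 8929 CPM (lowest, median, highest) and in 6 of 7 at day 21, up to 1128 CPM. The growth factor receptors Fgfr1 and Fgfr2, the Notch ligand Jag1 and the target Hey1 were among the kept, of which Fgfr2 was at a log2 ratio of 0.42 without day 7 replicate 4. Notch2, Bmpr1a, Gli3 and the Wnt inhibitors Dkk3 and Sfrp1 were the others kept lower; Dkk3 was at 1.47 without day 7 replicate 4 and Sfrp1 at 0.45 without replicate 8. In a list of 13 compared neural progenitor and neurogenic factors 6 were lower and 1 higher, and Neurod2, Sox2, Sox4 and Sox11 were kept lower.

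Matrix genes were compared for 17 of 30, with 10 past the fold lower, 4 higher and 5 kept lower, where 40.7% of all genes were lower and 20.1% kept lower. The median was -2.04, and -0.89 without day 7 replicate 8. Only 1 gene was kept each way without the 4 cells, where 10.7% of all genes were kept higher and 9.22% kept lower. The 5 kept genes were the proteoglycan Vcan, tenascin C (Tnc), the laminin chain Lama2, Prelp and the protease inhibitor Timp3. The unfolded protein response had 13 of 20 lower and 3 higher and 6 kept lower, with a median of -1.63, beside the same shares of all genes. Herpud1, which serves in degradation at the endoplasmic reticulum, had no read at day 21 and 173 CPM at day 7, at least 860-fold lower, though 4 of the 8 day 7 cells had none either. Atf4, Xbp1, Pdia4, Pdia6 and Manf were the other genes kept. Without the 4 cells the unfolded protein list had 7 of 16 lower and 5 higher, with a median of -0.53. Without the many-gene pair alone it had 6 lower and 5 higher, with a median of -0.21. Among all genes 34.4% were lower in the first setting and 35.7% in the second.

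Among 46 oxidative phosphorylation genes, all compared, 18 were past the fold higher and 2 lower, with 3 kept higher and 2 lower, and the median was 0.53. Of all genes 29.7% were higher and 2.43% kept higher. Without the 4 cells 23 were higher and 3 lower, with 11 kept, all higher. In that setting 41.5% of all genes were higher and 10.7% kept higher, with a median of 0.37. Cox5a, a subunit of complex IV, was at 0, 106 and 394 CPM (lowest, median, highest) at day 21 and at most 83.7 CPM at day 7. Uqcrfs1 of complex III was at 183 and 18.4 CPM, with its level at day 21 resting mainly on replicate 7 at 899 CPM. Ndufs3 was also kept higher, and Ndufa1 and Ndufa9 lower. The median became -0.19 under spike-in scaling and -0.50 on the mean of log2 values, so the list's direction depended on the scale. Of 20 glycolytic genes 1 was higher and 8 lower, with 4 kept lower (Hk1, Pfkp, Pfkfb3 and Pygb) and a median of -0.63, a share lower near that of all genes. Pfkp, a phosphofructokinase, was read in all 8 day 7 cells from 127 to 1599.8 CPM. At day 21 it was at 884 CPM in replicate 1, and at most 0.398 CPM in the others. Pfkfb3 was at a log2 ratio of 0.48 without day 7 replicate 3.

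The remaining lists were divided. Their counts stand beside 29.7% of all genes past the fold higher and 40.7% lower, with 2.43% kept higher and 20.1% kept lower. Cholesterol and lipid genes had 10 of 28 past the fold higher and 12 lower, with 2 and 7 kept and a median of -0.31, which was 1.06 without the 4 cells. Nsdhl, an enzyme of cholesterol synthesis, was among those kept higher. Pmvk, Cyp51 and Dhcr7 of the same synthesis path, the regulator Srebf1 and the fatty acid genes Fasn, Scd2 and Fads2 were kept lower. Cytokine and NF-kB genes had 5 of 18 higher and 7 lower, with 5 kept lower and a median of -0.53. These were the growth factor Csf1, the NF-kB subunit Nfkb1, its inhibitor Tnfaip3, the adaptor Myd88 and the receptor Tlr2, of which Tlr2 was at a log2 ratio of 1.83 without day 7 replicate 5. Nucleic acid sensors had 3 of 8 higher and 4 lower, with 1 kept lower, the RNA-editing enzyme Adar, which was at 1.54 without day 7 replicate 8. Phagocytosis genes had 6 of 26 in each direction, with the bridging protein Pros1 kept higher and its relative Gas6 and Mfge8 kept lower. Astrocyte factors that act on synapses had 4 of 18 higher and 7 lower, with 3 kept lower, among them the neurotrophin Bdnf and Gpc5. Bdnf was read in 7 of 8 day 7 cells and 2 of 7 day 21 cells, at pool levels of 176 and 26.7 CPM. Cell cycle genes had 10 of 31 compared, 1 higher and 4 lower, with the replication helicase subunit Mcm4 kept lower.

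Markers of the other cells of cortex were present in part. For comparison, 29.7% of all genes were past the fold higher and 40.7% lower, with 2.43% kept higher and 20.1% kept lower. Neuronal markers common to most neurons had 4 of 15 past the fold each way and 3 kept lower. Their median of -0.12 was 0.71 without the 4 cells. Their sum reached 13630 CPM in day 21 replicate 7 and 10584 CPM in day 7 replicate 2. The astrocyte identity list summed to less in the same cells, to 6704 and 7627 CPM. Excitatory markers had 4 of 9 lower and 2 higher, with 3 kept lower, and inhibitory markers 5 of 8 lower and 2 higher, with 4 kept lower, among them Gad1 and Gad2, the enzymes of GABA synthesis. With the 4 cells left out no excitatory and 1 inhibitory marker was kept lower, where 9.22% of all genes were. Of 9 oligodendrocyte markers 4 were higher and 2 lower, with the myelin gene Mbp and Enpp2 kept higher; Enpp2 was at -0.32 without day 21 replicate 5. Of 10 precursor markers 6 were higher and 3 lower, with 1 kept each way, and their median of 1.66 was -3.23 without day 21 replicate 5. Endothelial, pericyte, ependymal, red blood cell and B-cell lists had 1 to 3 genes compared, of which Ly6a and Fech were kept higher. Their part in the gene lists above was not tested.

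Only 3 genes of 9431 (0.0318%) had every day 7 cell above every day 21 cell. Ezr, which links membrane to actin in fine astrocyte processes, was read in 8 of 8 day 7 cells at a pool level of 191 CPM and in none at day 21, at least 950.4-fold lower. Its day 7 cells were at 0.547, 14.2 and 983 CPM (lowest, median, highest), and the lowest was a single read. The day 7 pool level of Ezr was 75.0 CPM without the highest cell, so the size of the difference rested largely on that cell. It was at 282 CPM in the cells with both guides at day 21 and 106 CPM in the fourth batch's control cells. Gm17334 was at 543 CPM at day 7 and 0 at day 21. Its day 7 cells were at 0.396, 282 and 2926 CPM (lowest, median, highest), and its day 7 pool at 323 CPM without the highest cell. The lowest Gm17334 value was also a single read, so for Ezr and Gm17334 the full separation of the days rested on such a read. The splicing factor Bud31 was at 125 and 8.70 CPM, with reads in 2 of 7 day 21 cells.

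Among all kept genes with at least 20 CPM in the higher pool and reads in at least 50% of its cells, 15 per direction were ranked by the log2 ratio without the highest cell of each pool. Higher at day 21, besides the genes above, were Ech1, an enzyme of fatty acid oxidation, at 632 and 35.3 CPM, the splicing factor Sf3a1 at 353 and 1.3 CPM, the proteasome subunit Psmc4 at 389 and 31.7 CPM, and the copper transporter Atp7a. Lower were Plat, the tissue plasminogen activator, at 53 and 517 CPM, the acid glucosidase Gaa at 0.201 and 416 CPM, the stress gene Nupr1, and the small GTPase Gem at 65.5 and 448 CPM. Grk3, Tnfsf9 and Ccnl2 had no read at day 21, at least 1901-fold, 2313-fold and 1491-fold lower. Ranked genes were chosen by these same values, so their sizes describe the choice.

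**Figure D5:**
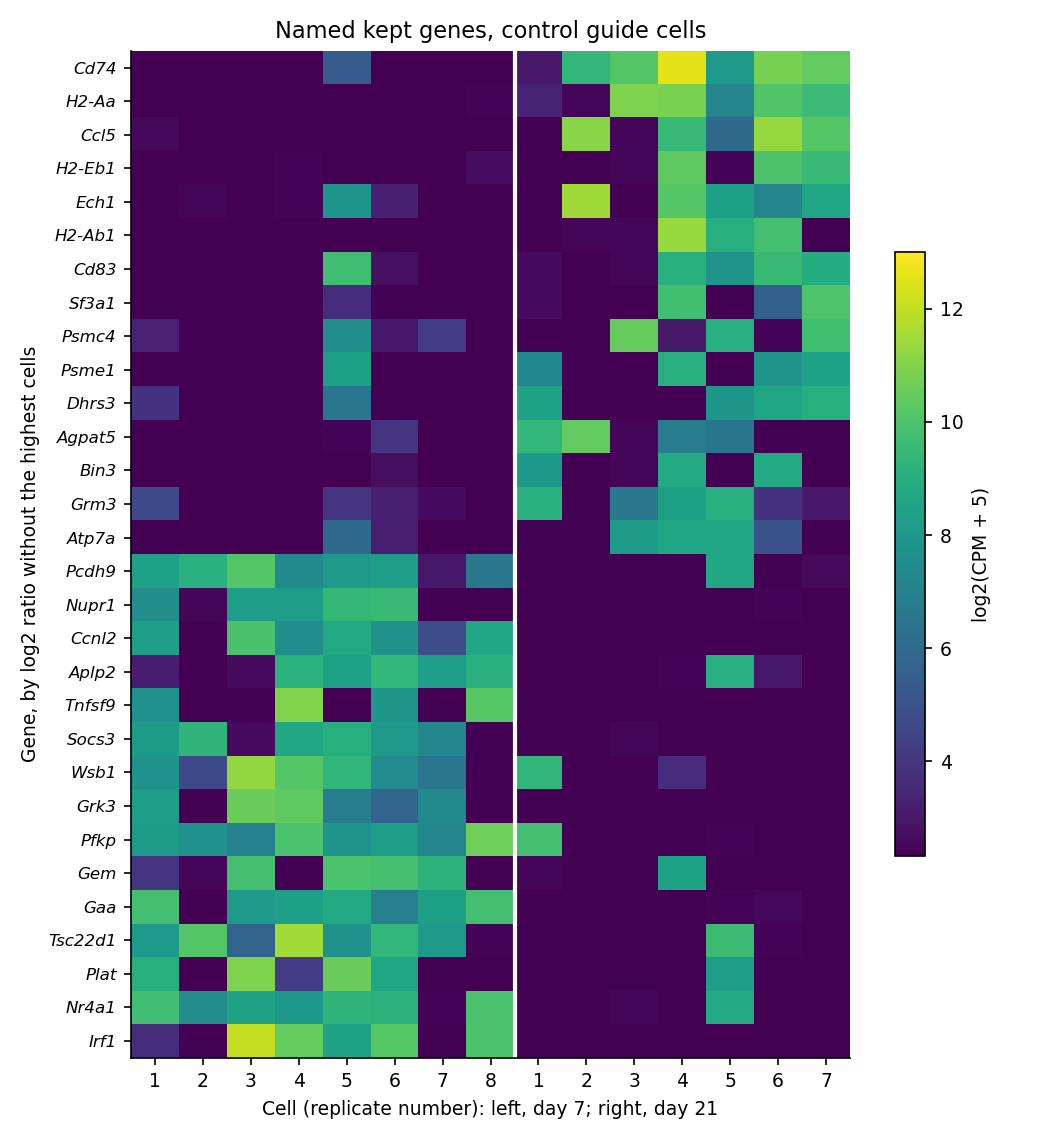
Heat map of log2(CPM + 5) for the 30 ranked genes (15 higher and 15 lower at day 21, vertical) in the 15 cells (horizontal, day 7 left, day 21 right). Within each day the cells differ for most genes, as for Ccl5, which is at 0 in 1 day 21 cell and at 2519 CPM in another.

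In the in-slice control, 50 of the 229 genes kept higher (21.8%) and 138 of the 1893 kept lower (7.29%) were at 10 CPM or more, against 1127 of all 9431 compared (11.95%). Cd74, H2-Aa, H2-Ab1, H2-Eb1 and Ccl5 were among the first group, and Irf1, at 0.435 CPM, and Nr4a1, at 0, were not in the second.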

How the data were processed

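Smart-seq2 libraries of single cells were counted by the submitters, and the deposited values are whole-number read counts per gene, per the file headers and the values themselves. The submitters' processing notes name STAR 2.6.0a, RSEM 1.3.0, GRCm38 and mm10. The role of each tool, strand handling and cell filters are not given in the sources used here. All 23787 gene rows entered the totals. The 80 spike-in rows, which took 20.9% of reads in the 15 cells, and the 2 guide rows were left out.

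From the counts, CPM per cell and per pool, log2 ratios of pool CPM + 5, exact Poisson and Clopper-Pearson intervals and the calls were computed with Python 3.11.15, numpy 2.4.6, pandas 2.3.3 and scipy 1.17.1. With no animals named, each day was 1 sample and no test was run. No molecular identifiers are available, no doublet caller was run on hand-drawn cells, and no 2 cells had identical counts. A floor of 3 reads over the pool is 0.201 CPM at day 21 and 0.165 CPM at day 7. Gene names were taken from GENCODE M21, which matched 23747 rows, and promoters from RefSeq.

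Named genes were Cd74, Ccl5, Irf1, Nr4a1, Sox9 and Trps1, the 15 ranked genes each way, and from each list the kept members and up to 4 abundant ones. A few of these genes are not reported here. Genes whose cells did not overlap, Y-box promoters and a few marker genes were named after their values were seen. The comparison, genes, 23 gene lists and 13 marker lists were chosen with earlier results of these data known. The scripts were tested on simulated counts. Alternatives covered scaling, pseudocount, filter, depth and each cell left out; leaving out cells with extreme gene numbers was added after seeing the data.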

Additional observations from a re-analysis of the deposited data

Results flagged for a closer look

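A cell was set apart when its gap to the next cell was a larger part of its group's range than Dixon's 95% critical value allows. This held for 26 of 92 values tested, of which chance alone gives about 1 in 20, and the values share cells and are skewed counts, so they are not independent. Among single genes, the cells set apart were day 7 highs of 36.6 CPM for Cd74, 0.861 CPM for Ccl5 and 4093 CPM for Irf1, and day 21 highs of 6083 CPM for Cd74 and 447 CPM for Nr4a1. All other cells of the group were at 0 for the first 2 of these.

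Among summed lists at day 7, the highest cell stood apart for class II presentation (10742 CPM), chemokines (14267 CPM), phagocytosis and lysosome (25874 CPM) and microglia and macrophage markers (38055 CPM), 4 lists with immune genes. It also stood apart for the p53 response (5976 CPM), developmental signalling (15451 CPM), neurogenic and progenitor genes (2998 CPM), and markers of oligodendrocyte progenitors (1749 CPM), pericytes (1692 CPM) and red blood cells (815 CPM).

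At day 21 the highest cell stood apart for class II presentation (21647 CPM), cytokines and NF-kB (8737 CPM), extracellular matrix (3132 CPM) and oxidative phosphorylation (31476 CPM). Among markers of other cells it did so for B and plasma cells (2743 CPM), oligodendrocytes (11668 CPM), their progenitors (2877 CPM), neurons (13630 CPM), endothelium (1809 CPM), pericytes (10.2 CPM) and red blood cells (1499.5 CPM). The part of these cells in the gene results was not tested.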

How the results depend on the processing

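No paired analysis was possible because the replicate numbers only follow accession order and no animals are named. Of the 159 kept named genes, 146 had 1 sign under all 26 alternatives, 11 turned sign and 2 (Ifi44 and Oasl2) came to 0 without the many-gene pair. Of 36 lists with a median, 18 had 1 sign under all of their 26 to 28 alternatives. Genes higher at day 21, 2804 here, numbered 1798 with spike-in scaling, 1311 on mean log2 values, 1852 with a minimum of 20 CPM and 1165 without the highest cells; those lower, 3841 here, numbered 2477 with a pseudocount of 20 and 1958 with a minimum of 20 CPM. Those kept higher, 229 here, numbered 149 with a pseudocount of 20, and 524, 612 and 922 without the few-gene pair, the many-gene pair and both; those kept lower, 1893 here, numbered 914 with that pseudocount and 959 and 796 without the many-gene pair and both. Without the pairs 2, 6 and 20 genes had every day 21 cell above every day 7 cell. The share of genes past the fold that were higher, 42.2% here, was 28.6% with spike-in scaling, 25.5% on mean log2 values, 26.2% without the highest cells, and 53.1% and 54.7% without the many-gene pair and both. Leaving out 1 cell at a time gave 2374 to 3103 higher, 3506 to 4451 lower, 205 to 426 kept higher (375 without day 7 replicate 5, 426 and 401 without day 21 replicates 2 and 3), 1377 to 2319 kept lower, 1 to 6 not overlapping with day 21 above and 3 to 13 with day 7 above. Over the same cells left out, log2 ratios turned sign for Adar (-4.37 to 1.54), Igtp (-2.73 to 0.13) and Sfrp1 (-4.03 to 0.45), without day 7 replicate 8, Cry2 (-4.94 to 1.55), Dkk3 (-4.46 to 1.47), Dusp6 (-4.13 to 0.17) and Fgfr2 (-5.06 to 0.42), without replicate 4, Pfkfb3 (-4.26 to 0.48), without replicate 3, Tlr2 (-4.99 to 1.83), without replicate 5, and Enpp2 (-0.32 to 4.95), without day 21 replicate 5. Without the many-gene pair and without both pairs, Tlr2 was at 3.40 and 3.70 and Fas at 1.22 and 1.5. The cause was not tested. No cell had under 500000 reads, so that filter left out none.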
